A study of Homo sapiens with 6 samples.

Results

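The genes described here are the core regulators of the cell division cycle: cyclins, cyclin-dependent kinases (CDKs), the proteins that restrain or activate them, and the retinoblastoma and E2F factors that act downstream. They were taken as a fixed list of 42 symbols, and all 42 had a row among the 16229 genes of the deposited count table. Gene expression had been measured by RNA sequencing in 6 libraries of a wild-type colorectal cancer line that the labels call MC38. GCA, read as glycocholic acid from the series' title, is a glycine-conjugated bile acid, and 3 libraries came from cells kept with it for 24 hours. The other 3 carry the treatment label CON, read as the control without it, and the comparison asks what GCA does to the transcripts of these cells. The sources used here give neither the dose nor a vehicle. The sample titles of the GCA libraries read fa, which is not explained, so every value named GCA rests on their treatment label. MC38 is known as a mouse line, yet human is the organism in the labels and the tables hold human symbols. The extraction protocol also speaks of heart tissue. These conflicts could not be settled here.

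A dividing cell passes from G1 through S phase and G2 into mitosis. D-type cyclins with CDK4 or CDK6, then cyclin E with CDK2, phosphorylate the retinoblastoma protein and its relatives, the pocket proteins, which releases E2F factors to transcribe S phase genes, several E2F genes and cyclin E among them. Cyclin A with CDK2 or CDK1 and cyclin B with CDK1 then drive S phase and mitosis, under the opposing control of the kinases WEE1 and PKMYT1 and the CDC25 phosphatases. INK4 inhibitors bind CDK4 and CDK6, and Cip/Kip inhibitors bind cyclin and CDK complexes. In the intestine this machinery runs in the proliferating crypt and is switched off as cells differentiate, and colorectal tumours often keep it active.

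Total counts ran from 18057453 to 20531612 per library. Levels are given as CPM, read counts scaled to the library size with TMM, a composition correction. Fold changes with their standard errors (SE) and p-values were computed with the quasi-likelihood test of edgeR, and p-values were adjusted by the Benjamini-Hochberg method over all 12604 genes that passed the filter on low counts. A gene is said to have risen or fallen where its adjusted p was under 0.05, and n = 3 per group throughout. Nothing in the labels says that the replicates came from separate cultures; the p-values therefore reflect only how far these libraries spread, which may be technical. On the second principal component CON 1 lay at 34.5, with CON 2 at -14.7 and CON 3 at -17.8, so counts are given without it too. Of 12 colorectal epithelial markers 9 passed the filter and 4 of these rose (KRT8, KRT18, KRT20 and CDH1), while CDX1, CDH17 and GPA33 did not pass it. KRT20 and VIL1 stood under 2 CPM in both groups. The summed epithelial markers ran from 7921 to 10112 CPM in CON and from 11134 to 12705 CPM in GCA. Markers of leukocytes, heart muscle, and fibroblasts and endothelium summed to at most 32.8, 27.1 and 13.4 CPM in CON and at most 43.3, 42.5 and 18.9 CPM in GCA, each without overlap between the groups. PTPRC, CD3E, MYH6, MYH7, DCN and LUM were under 3 counts in every library. The part of these markers in the results below was not tested.

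Most of the cell cycle regulators that were called were lower in GCA. Of the 41 that passed the filter, 20 fell (48.8%), 3 rose (7.32%) and 18 did not pass the threshold. Among all genes tested 36.4% were called, 18.1% lower and 18.3% higher in GCA. The median log2 fold change was -0.32 over the tested members and -0.04 over all tested genes. The genes that fell included both E-type cyclins, cyclin A2, both mitotic B cyclins, CDK1, CDK2, CDK6, both inhibitory kinases and both atypical E2F genes. Those that rose were the inhibitors CDKN2D and CDKN1C and the growth-arrest cyclin CCNG2. In 22 of the tested members every GCA library lay below every CON library, and in 3 every GCA library lay above, where 24.3% and 24.1% of all tested genes did so (48.5% in either direction). The genes were chosen with earlier results of these data known, so these counts describe them and test nothing about the group. In bulk RNA, fewer cells in a phase of the cycle and less RNA per cell cannot be told apart.

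**Figure D1:**
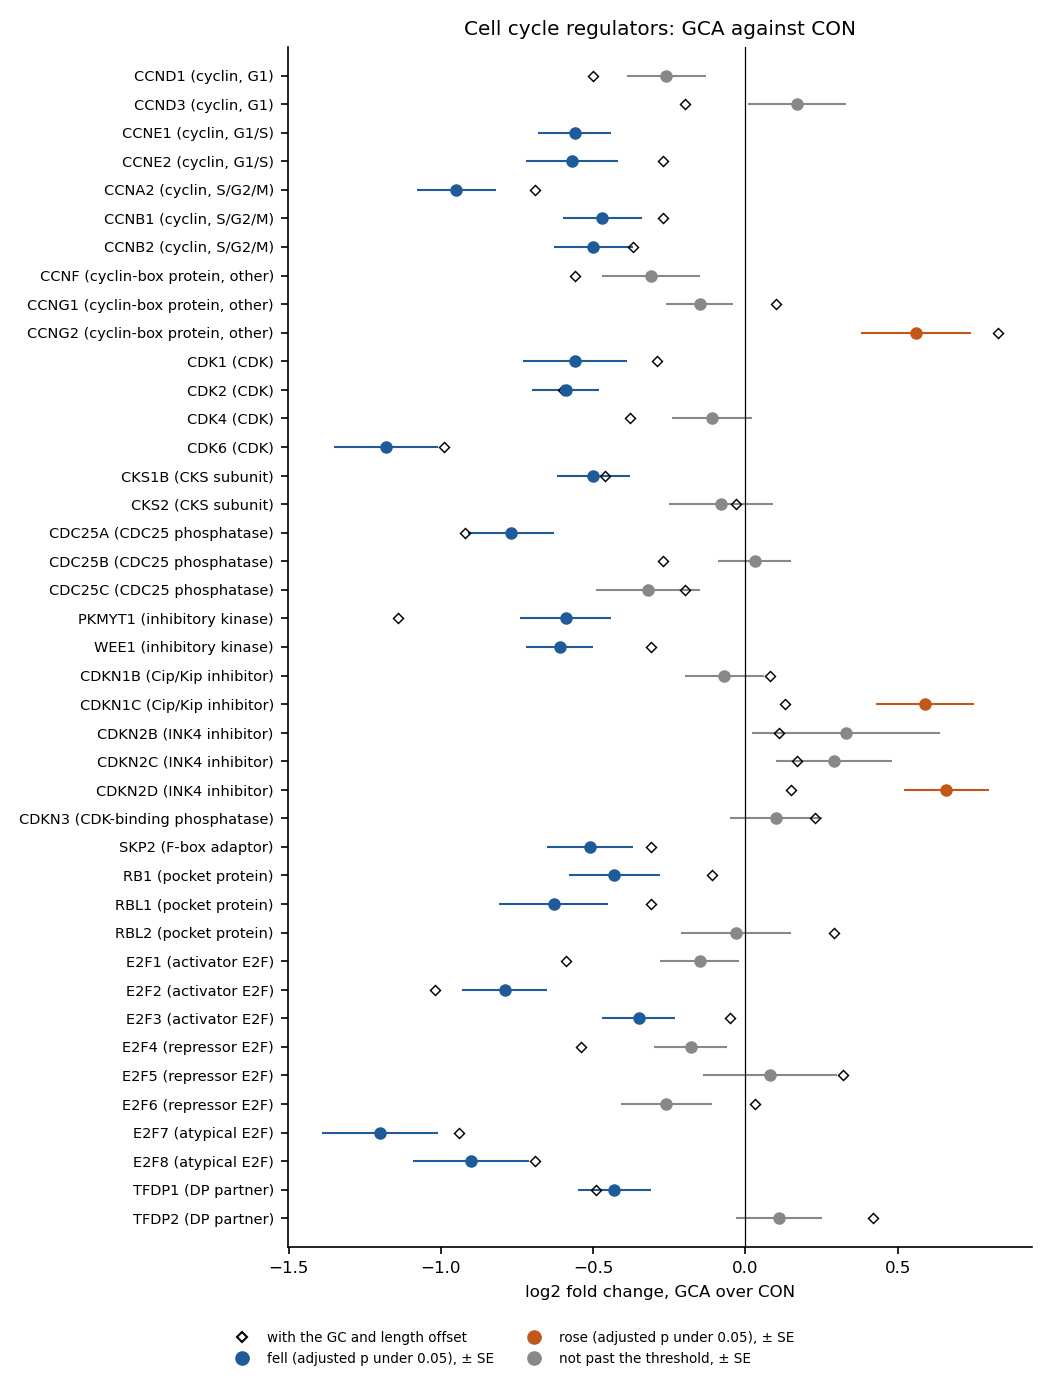
Log2 fold changes of the 41 tested regulators (x axis, GCA over CON), ordered by role, with bars for 1 SE on either side; colours mark the 20 that fell, the 3 that rose and the 18 not past the threshold, and open diamonds mark the value with the GC and length offset. Without the offset E2F7, CDK6, CCNA2 and E2F8 lie farthest to the left; with it PKMYT1, E2F2, CDK6 and E2F7 do.

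Without CON 1 the count was 22 lower and 4 higher of 41, where 52.6% of all genes were called (27.3% lower and 25.3% higher). Leaving out GCA 2 gave 12 lower and 1 higher, with 25.4% of all genes called (11.7% lower and 13.7% higher). Leaving out GCA 3 also gave 12 lower and 1 higher, with 20.6% of all genes called (8.88% lower and 11.8% higher). In the other leave-outs the share of all genes called was 23.8% without CON 2, 26.7% without CON 3 and 29.2% without GCA 1. Fold changes over all genes followed the GC content of their transcripts (r = 0.48 across 12563 genes, as a description; the genes share the same 6 libraries). A fit with an offset for GC content and length therefore stands beside the main one. With it 17 regulators fell and 2 rose, while 28.7% of all genes were called (16.7% lower and 11.9% higher): 12 of the 23 calls were kept, 11 were lost, and 6 falls and 1 rise were new. The kept calls were the falls of CCNA2, CCNE1, CDK2, CDK6, CDC25A, PKMYT1, CKS1B, TFDP1, E2F2, E2F7 and E2F8 and the rise of CCNG2. Over all genes this offset took the calls from 2307 higher and 2277 lower to 1502 higher and 2111 lower. With the offset and the replicate number as a block 20 regulators fell and 2 rose (34.3% of all genes called, 20.6% lower and 13.6% higher), and CCNB1, CCNB2 and WEE1 passed again (adjusted p = 0.0473, 0.0487 and 0.0412). The block alone gave the main counts of 20 and 3, with 41% of all genes called (21% lower and 20% higher). DESeq2 and limma-voom called the same 23 regulators, with 33.1% and 35.7% of all genes called. Unfiltered log2(FPKM + 1) values gave 19 lower and 1 higher (21.6% of all genes called, 9.6% lower and 12% higher). Without replicate 1 of both groups 23 were lower and 5 higher (58.5% of all genes called, 29.3% in each direction).

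**Figure D2:**
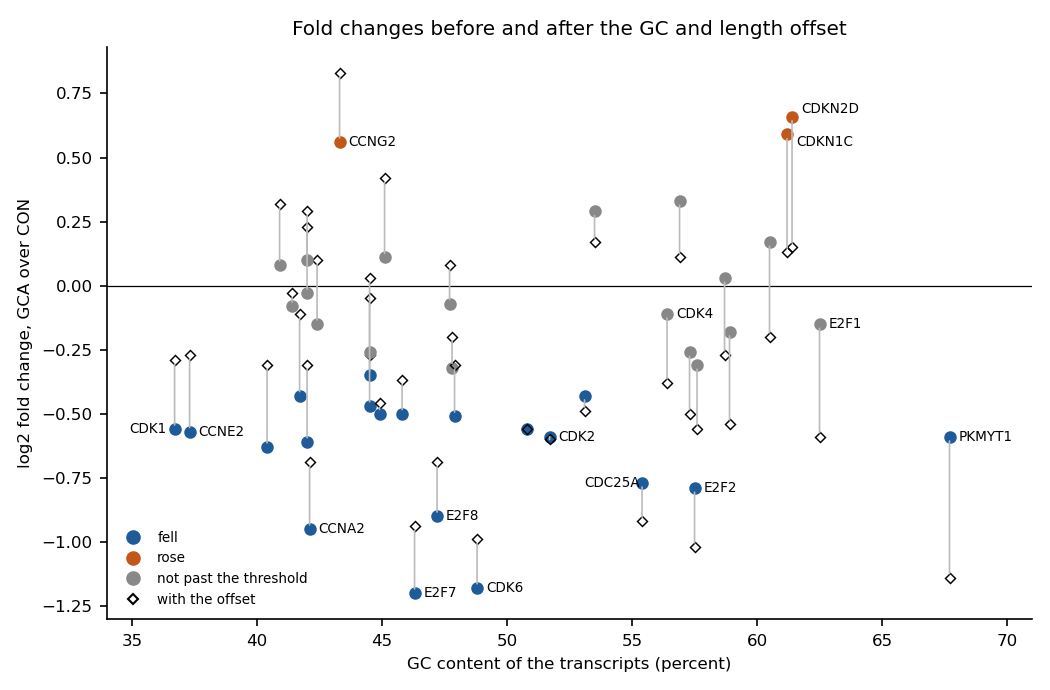
Each regulator's log2 fold change (y axis, GCA over CON) against the GC content of its transcripts (x axis, percent), without the offset (filled) and with it (open diamonds), joined by a line. GC-rich genes such as PKMYT1 and E2F1 move down with the offset, GC-poor genes such as CDK1 move up, and CDK2 stays in place.

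Promoter sequences are shown here because several of these genes are known to be transcribed by the E2F factors and by the MuvB complexes that they themselves control. Windows from 250 bases before to 50 bases after the gene start were available from RefSeq (GRCh38.p14) for 33 of the 42 genes. Missing were CCND1, CCND2, CCNE2, CDK2, CDKN1C, E2F5, E2F8, WEE1 and PKMYT1. For 26 of the 33 the 50 bases after the start were found in a GENCODE 29 transcript of the gene. The start used was not checked further for the rest. Each window was searched on both strands for 6 E2F octamers (TTTCCCGC, TTTGGCGC, TTTCGCGC, TTTGCCGC, TTTGGCGG and TTTCCCGG). It was also searched for 2 hexamers of the cell cycle homology region, or CHR (TTTGAA and TTCGAA), and for the CCAAT box (CCAAT). Other forms of these motifs were not searched for, so a window that holds only such a form counts as without a match. Matches of different octamers may overlap each other. An E2F octamer was present in 9 of 33 windows (27.3%), against 7.8% of the 12797 windows of the table's genes. A CHR hexamer was present in 8 (24.2%, against 11.8%) and a CCAAT box in 16 (48.5%, against 36.2%).

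The windows below run up to the base before the gene start, 5′ to 3′ on the gene's strand, with matches in capitals. The sequences of E2F1, E2F2, RBL1 and CDC25A show E2F octamers close to the start. E2F1 and RBL1 hold 2 each; GCGGCAAA in E2F1 is TTTGCCGC on the other strand, and CCAAT boxes (ATTGG where read on the other strand) are in capitals too.
E2F1 (chr20:33686386-33686465, minus strand): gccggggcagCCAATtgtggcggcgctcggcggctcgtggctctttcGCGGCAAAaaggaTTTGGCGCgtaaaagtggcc
E2F2 (chr1:23531234-23531313, minus strand): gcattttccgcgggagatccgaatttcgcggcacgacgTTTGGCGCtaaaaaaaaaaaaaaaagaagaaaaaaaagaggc
RBL1 (chr20:37095998-37096077, minus strand): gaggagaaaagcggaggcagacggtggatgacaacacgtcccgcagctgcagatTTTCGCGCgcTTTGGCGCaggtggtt
CDC25A (chr3:48188418-48188537, minus strand): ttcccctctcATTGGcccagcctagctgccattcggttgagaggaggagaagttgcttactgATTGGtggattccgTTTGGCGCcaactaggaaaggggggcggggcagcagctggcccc

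Those of CCNA2, CCNB2, CKS1B and CKS2 show CCAAT boxes and, except in CCNA2, a CHR hexamer between the last box and the start (in CKS2 it is TTTGAA on the other strand and so reads TTCAAA). A match is a description of letters only. The absence of a CHR match from CCNA2 says no more than that TTTGAA and TTCGAA are not in this window, and other hexamers were not searched for.
CCNA2 (chr4:121823884-121823973, minus strand): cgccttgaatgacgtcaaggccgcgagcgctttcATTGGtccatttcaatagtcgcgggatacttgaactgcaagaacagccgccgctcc
CCNB2 (chr15:59105016-59105145, plus strand): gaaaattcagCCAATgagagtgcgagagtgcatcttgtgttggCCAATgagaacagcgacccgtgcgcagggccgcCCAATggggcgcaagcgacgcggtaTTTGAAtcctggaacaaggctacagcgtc
CKS1B (chr1:154974541-154974680, plus strand): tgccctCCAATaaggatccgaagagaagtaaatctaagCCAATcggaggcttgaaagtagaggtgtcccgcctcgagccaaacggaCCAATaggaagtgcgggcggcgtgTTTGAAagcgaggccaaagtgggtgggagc
CKS2 (chr9:89311105-89311194, plus strand): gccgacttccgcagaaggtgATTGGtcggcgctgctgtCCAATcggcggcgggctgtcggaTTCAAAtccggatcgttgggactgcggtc

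Of the 9 regulators with an E2F octamer 6 fell and 3 were not called, with a median log2 fold change of -0.43. The 6 that fell were CDK1, CDC25A, RBL1, E2F2, E2F3 and TFDP1, while E2F1, E2F6 and TFDP2 did not pass. Of the 24 windows without an octamer 9 belonged to genes that fell and 2 to genes that rose (median -0.16). Over all genes tested 18.1% fell and 18.3% rose, and the share called among all genes with a given motif was not computed. Of the 8 with a CHR hexamer 4 fell (CCNB2, CDK1, E2F3 and CKS1B) and CCNF, CDKN3, RBL2 and CKS2 did not pass (median -0.33). Of the 25 windows without a CHR hexamer 11 belonged to genes that fell and 2 to genes that rose (median -0.26). A CCAAT box stood in 16 windows, of which 8 belonged to genes that fell and 1 to a gene that rose (median -0.33). Of the 17 without a CCAAT box 7 fell and 1 rose (median -0.26). The same letters stood in windows of genes that fell and of genes that were not called. E2F2 and E2F1 both hold TTTGGCGC, and CKS1B and CKS2 both hold CCAAT boxes and TTTGAA. E2F1 was not called in the main fit, but with the GC and length offset it fell by 0.59 (adjusted p = 0.00388). CKS2 stood at -0.08 in the main fit and at 0.18 without CON 1 (adjusted p = 0.106). Whether a motif bears on the fold changes was not tested.

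**Figure D3:**
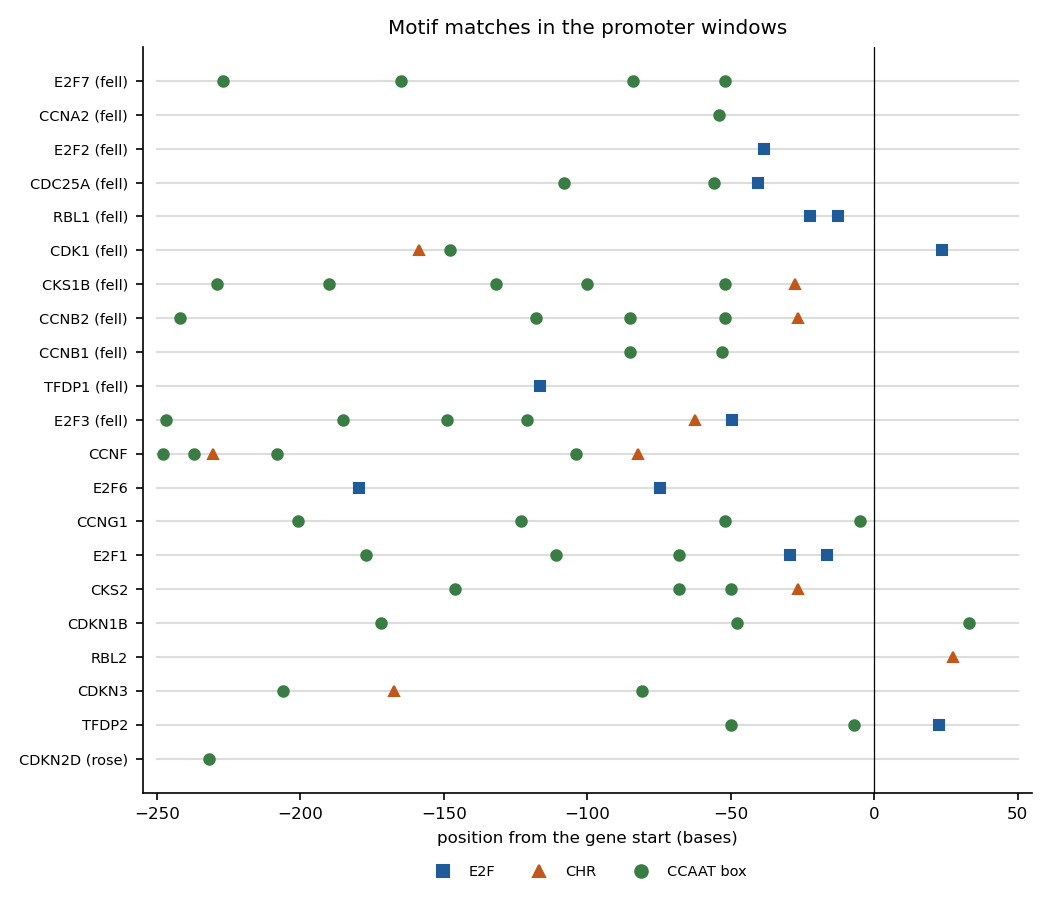
Matches of the E2F octamers (squares), CHR hexamers (triangles) and CCAAT boxes (circles) by distance from the gene start in bases (x axis), in the 21 regulators with at least 1 match, ordered from the lowest log2 fold change at the top to the highest at the bottom. E2F octamers and CHR hexamers occur both in genes that fell and in genes not past the threshold. Of the 9 genes with an octamer 6 fell, and of the 8 with a CHR hexamer 4 fell.

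Among the G1 cyclins edgeR called neither tested gene (0 at an unadjusted p under 0.05, 0 with DESeq2 and 0 with limma-voom). CCND1 (cyclin D1, chromosome 11, 69641156 to 69654474, GRCh38) partners CDK4 and CDK6 and carries mitogen signals into the cycle. Its level was 689, 588 and 571 CPM in CON 1 to 3 and 540, 511 and 491 CPM in GCA 1 to 3, so the groups did not overlap. The log2 fold change was -0.26 ± 0.13 (SE), which did not pass (adjusted p = 0.127). It passed in 7 of 20 alternatives, among them scaling by library size alone (-0.30, adjusted p = 0.0365) and the GC and length offset (-0.50, adjusted p = 0.00992). CCND3, another D-type cyclin, had 99.3, 66.4 and 63.4 CPM in the CON libraries against 82.2, 81.5 and 94.9 CPM in the GCA libraries (log2 0.17 ± 0.16, adjusted p = 0.419). CON 1 alone held CCND3 above the GCA range: without it the log2 fold change was 0.41 (adjusted p = 0.00398), and with the offset it was -0.20. CCND2 stood below the filter, with counts of 0, 15 and 0 in the CON libraries against 0, 4 and 0 in the GCA libraries, all in libraries numbered 2. In FPKM, which divides counts by library total and transcript length, CCND1 made up 84.9% ± 1.90 (SD) of the summed D-type cyclin FPKM in CON and 80.4% ± 2.02 in GCA.

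The E-type cyclins, which switch on CDK2 at the start of S phase, both fell. CCNE1 (chromosome 19, 29811991 to 29824312) had 58.1, 51.3 and 50.1 CPM in the CON libraries against 39.6, 32.8 and 35.8 CPM in the GCA libraries. It fell by 0.56 ± 0.12 in log2 terms (adjusted p = 0.00401), and its fall passed under all 20 alternatives (adjusted p up to 0.0282). CCNE2 had 16.4, 14.3 and 14.7 CPM in the CON libraries against 10, 10.6 and 9.90 CPM in the GCA libraries, and it fell by 0.57 ± 0.15 (adjusted p = 0.00999). In both genes all GCA libraries lay below all CON libraries. CCNE2 shares 1629 exonic bases with INTS8 on the opposite strand, which itself fell by 0.62 (adjusted p = 0.00396). The strand setting of the counting is not given, so reads of the overlap cannot be assigned here. With the offset CCNE2 stood at -0.27 (adjusted p = 0.184). CCNE1 kept its share of the E-type cyclin FPKM, at 87.3% in both groups.

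Cyclin A2 had the lowest fold change among the cyclins, with the offset as without it. CCNA2 (chromosome 4, 121816444 to 121823883) serves CDK2 in S phase and CDK1 in G2. Its CPM values were 99, 80.8 and 78.8 in the CON libraries against 50.3, 40.4 and 42.9 in the GCA libraries, a fall of 0.95 ± 0.13 in log2 terms (adjusted p = 2.57e-04), or 1.93-fold. The highest GCA library lay well below the lowest CON library. CCNA2 overlaps EXOSC9 on the other strand over 254 exonic bases, and EXOSC9 fell by 0.52 (adjusted p = 0.00876). CCNB1, the main mitotic cyclin, had 227, 189 and 171 CPM in the CON libraries against 151, 137 and 137 CPM in the GCA libraries and fell by 0.47 ± 0.13 (adjusted p = 0.0145). Its relative CCNB2 had 70.1, 73.8 and 72.9 CPM in the CON libraries against 60.2, 46.5 and 46.4 CPM in the GCA libraries and fell by 0.50 ± 0.13 (adjusted p = 0.00933). GCA 1 was the highest GCA library in all 3 genes. Both B cyclin calls were lost without GCA 2 (adjusted p = 0.0648 for CCNB1 and 0.0539 for CCNB2), without GCA 3 (0.0758 and 0.0616) and with the offset (-0.27, adjusted p = 0.142, and -0.37, adjusted p = 0.0611). The share of CCNA2 in the summed FPKM of these 3 cyclins was 18.5%, 17.1% and 17.7% in the CON libraries against 13.8%, 13.0% and 13.7% in the GCA libraries.

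The cyclin-box proteins outside the core cycle split. CCNG2 (chromosome 4, 77157207 to 77170060), an atypical cyclin known to rise in cells that leave the cycle, had 9.75, 16.7 and 14.9 CPM in the CON libraries against 19.7, 21 and 20.3 CPM in the GCA libraries. It rose by 0.56 ± 0.18 in log2 terms (adjusted p = 0.0299), with CON 1 the lowest library. The rise was 0.36 without CON 1 (adjusted p = 0.0281) and 0.83 with the offset (adjusted p = 0.00387). Its call was lost without GCA 1, 2 or 3 (adjusted p = 0.0557, 0.0973 and 0.0917), with library size alone (0.0949) and with upper-quartile factors (0.0512). CCNG1, a p53 target, stood at -0.15 ± 0.11 (adjusted p = 0.331), although its groups did not overlap. CCNF, the F-box cyclin of a ubiquitin ligase, had -0.31 ± 0.16 (adjusted p = 0.142) and fell by 0.56 with the offset (adjusted p = 0.0241).

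Of the 4 kinases, CDK6, CDK2 and CDK1 fell and CDK4 was not called. CDK6 (chromosome 7, 92604921 to 92836573), which shares its D-type cyclin partners with CDK4, had 23.8, 25.1 and 18.7 CPM in the CON libraries against 11.5, 9.47 and 8.80 CPM in the GCA libraries. It fell by 1.18 ± 0.17 in log2 terms (adjusted p = 2.70e-04), or 2.27-fold, with no overlap. CDK4 (chromosome 12, 57747727 to 57752310) had 468, 362 and 383 CPM in the CON libraries against 388, 359 and 376 CPM in the GCA libraries, and only CON 1 lay above the GCA range. Its log2 fold change was -0.11 ± 0.13 (adjusted p = 0.534), 0.01 without CON 1, and -0.38 with the offset (adjusted p = 0.0152). CDK4 shares 1369 exonic bases with TSPAN31 on the other strand, which rose by 0.61 (adjusted p = 0.00727). CDK6 was the minor of these kinases per length, with 0.866% ± 0.172 (SD) of the CDK4 and CDK6 FPKM in CON and 0.409% ± 0.0481 in GCA.

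CDK2 (chromosome 12, 55966830 to 55972789), the S phase kinase, had 133, 139 and 133 CPM in the CON libraries against 94.3, 85.4 and 90.6 CPM in the GCA libraries. The libraries of each group lay close together, and CDK2 fell by 0.59 ± 0.11 in log2 terms (adjusted p = 0.00161) and by 0.60 with the offset. On the other strand it shares 565 exonic bases with the antisense gene AC025162.1, and 89 with PMEL, which rose by 1.34 (adjusted p = 5.27e-04). CDK1 (chromosome 10, 60778331 to 60794852), the kinase of mitosis, had 160, 101 and 95.6 CPM in the CON libraries against 79.4, 80.9 and 81.2 CPM in the GCA libraries. CON 1 stood far above the other 5 libraries, so the fall of 0.56 ± 0.17 (adjusted p = 0.0222) shrank to 0.29 without it (adjusted p = 0.0125). The CDK1 call was lost without GCA 1, 2 or 3 (adjusted p = 0.0897, 0.0771 and 0.0828) and with the offset (-0.29, adjusted p = 0.34). As a share of the 4 kinases' summed FPKM, CDK4 went from 69.8% ± 1.27 in CON to 76.3% ± 0.202 in GCA and CDK2 from 18.5% ± 2.49 to 14.4% ± 0.190, neither with overlap.

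**Figure D4:**
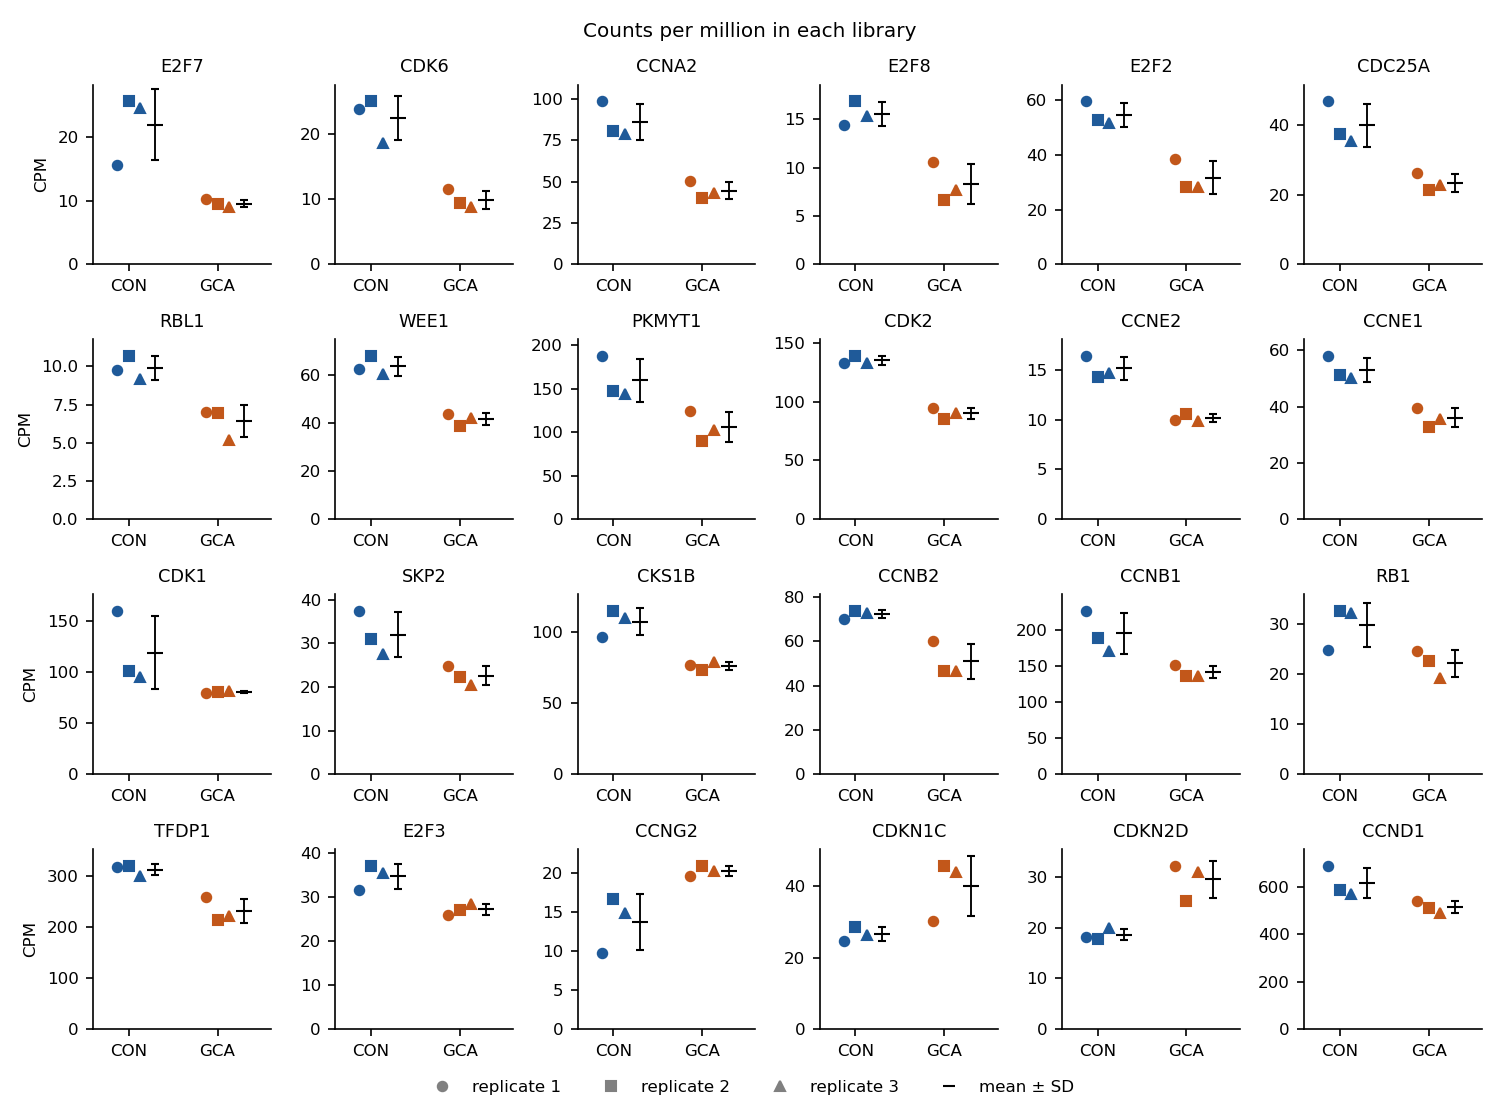
CPM in each library (y axis, from 0) for the 20 regulators that fell, the 3 that rose and CCND1, with a symbol for each replicate number and the mean ± SD beside each group. All GCA libraries lie outside the CON range in each panel. CON 1 lies farthest from the rest of its group in CDK1, E2F7 and CCNG2 and in further panels, CCNA2, CCNB1, CDC25A and PKMYT1 among them, but not in CDK6 or WEE1.

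The small CKS proteins dock CDK complexes on phosphorylated substrates, and CKS1B also serves the SKP2 ligase that marks the inhibitor CDKN1B for degradation. CKS1B had 96.6, 115 and 110 CPM in the CON libraries against 76.7, 73.3 and 78.6 CPM in the GCA libraries, a fall of 0.50 ± 0.12 in log2 terms (adjusted p = 0.00574). Its fall passed under all 20 alternatives. CKS2 had 203, 128 and 125 CPM in the CON libraries against 135, 152 and 144 CPM in the GCA libraries (log2 -0.08 ± 0.17, adjusted p = 0.735). All GCA libraries lay above CON 2 and 3, and without CON 1 the log2 fold change was 0.18 (adjusted p = 0.106). The CKS2 share of CKS FPKM was 72.6%, 58.4% and 58.9% in the CON libraries against 69.0%, 72.4% and 69.8% in the GCA libraries. A transcript named AP000873.3 matches CKS1B at 95.1% over 651 bases, so CKS1B reads could be split between them. SKP2, the F-box subunit of that ligase, had 37.5, 31.1 and 27.5 CPM in the CON libraries against 24.8, 22.4 and 20.5 CPM in the GCA libraries and fell by 0.51 ± 0.14 (adjusted p = 0.0163). The SKP2 call was lost without GCA 2 (adjusted p = 0.059), without GCA 3 (0.0857) and with the offset (-0.31, adjusted p = 0.181).

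The enzymes that set inhibitory phosphates on CDKs and those that remove them were measured side by side. WEE1 (chromosome 11, 9573670 to 9589985), the nuclear inhibitory kinase, had 62.5, 68.2 and 60.7 CPM in the CON libraries against 43.8, 39.0 and 42.4 CPM in the GCA libraries. It fell by 0.61 ± 0.11 in log2 terms (adjusted p = 0.00151), and by 0.31 with the offset, where it did not pass (adjusted p = 0.0709). PKMYT1 (chromosome 16, 2972808 to 2980446), its membrane-bound relative, had 188, 147 and 144 CPM in the CON libraries against 124, 90.0 and 103 CPM in the GCA libraries. It fell by 0.59 ± 0.15 (adjusted p = 0.00804) and by 1.14 with the offset, and the call was lost without GCA 2 (adjusted p = 0.0529). PKMYT1 overlaps PAQR4 on the other strand over 1233 exonic bases (PAQR4 log2 0.22, adjusted p = 0.136). Neither kinase had a GCA library inside the CON range.

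Of the CDC25 phosphatases, CDC25A alone was called. CDC25A (chromosome 3, 48157146 to 48188417) acts on CDK2 at the G1 to S boundary. It had 46.9, 37.3 and 35.3 CPM in the CON libraries against 26.2, 21.3 and 22.7 CPM in the GCA libraries and fell by 0.77 ± 0.14 in log2 terms (adjusted p = 0.00151), without overlap. CDC25B, which acts on CDK1 at mitotic entry, had 283, 299 and 300 CPM in the CON libraries against 318, 277 and 303 CPM in the GCA libraries (log2 0.03 ± 0.12, adjusted p = 0.875; -0.02 with library size alone). With the offset CDC25B fell by 0.27 (adjusted p = 0.0435). CDC25C had -0.32 ± 0.17 (adjusted p = 0.15), with overlapping groups, and fell by 0.45 without CON 1 (adjusted p = 0.0197). Per length CDC25B already made up 79.2% ± 0.450 (SD) of the CDC25 FPKM in CON and reached 84.8% ± 1.08 in GCA.

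Of the 5 listed CDK inhibitors 2 rose and 3 were not called, where 36.4% of all genes were called and 18.3% rose. CDKN2D (p19INK4d, chromosome 19, 10566460 to 10568979), an INK4 inhibitor of CDK4 and CDK6, had 18.2, 17.9 and 19.9 CPM in the CON libraries against 32.3, 25.3 and 31.1 CPM in the GCA libraries. It rose by 0.66 ± 0.14 in log2 terms (adjusted p = 0.00298), or 1.58-fold, with every GCA library above the CON range. CDKN1C (p57KIP2, chromosome 11, 2883218 to 2885775), an imprinted Cip/Kip inhibitor, had 24.7, 28.7 and 26.4 CPM in the CON libraries against 30.3, 45.8 and 44 CPM in the GCA libraries. It rose by 0.59 ± 0.16 (adjusted p = 0.0112), and GCA 1 stood close to the CON range. Without GCA 2 or GCA 3 the CDKN1C call was lost (adjusted p = 0.0672 and 0.0673). Both genes are GC-rich (61.4% and 61.2%), and with the offset neither passed: CDKN2D stood at 0.15 (adjusted p = 0.437) and CDKN1C at 0.13 (adjusted p = 0.607).

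CDKN1B (p27KIP1, chromosome 12, 12717368 to 12722369), the Cip/Kip inhibitor that SKP2 targets, had 30.2, 39.1 and 38.6 CPM in the CON libraries against 31.0, 36.6 and 35.3 CPM in the GCA libraries. The groups overlapped, with a log2 fold change of -0.07 ± 0.13 (adjusted p = 0.716). CDKN2C and CDKN2B, the other INK4 genes measured here, had 0.29 ± 0.19 and 0.33 ± 0.31, both with overlap, and CDKN2B stood at 2.78 ± 0.863 CPM (SD) in CON and 3.49 ± 1.13 CPM in GCA. CDKN3, a phosphatase that acts on CDKs, had 0.10 ± 0.15 (adjusted p = 0.651). CDKN1C made up 48.0% ± 2.23 of the CDKN1B and CDKN1C FPKM in CON and 58.8% ± 3.44 in GCA. FPKM carries no correction for GC content, and with the offset CDKN1B stood at 0.08, beside the 0.13 of CDKN1C. CDKN1A (p21), a Cip/Kip inhibitor outside the list of 42, averaged 745 CPM in CON but 412 CPM in GCA. It fell by 0.85 ± 0.13 (adjusted p = 3.30e-04), and by 1.15 with the offset.

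Of the pocket proteins, which hold E2F factors in check, RB1 and RBL1 fell. RB1 (chromosome 13, 48303751 to 48481890) had 24.8, 32.7 and 32.2 CPM in the CON libraries against 24.6, 22.6 and 19.3 CPM in the GCA libraries. CON 1 and GCA 1 were nearly level, and the fall of 0.43 ± 0.15 on the log2 scale passed narrowly (adjusted p = 0.0379). The RB1 call was lost without CON 2, CON 3, GCA 2 or GCA 3 (adjusted p = 0.158, 0.131, 0.0936 and 0.167), and on log2(FPKM + 1) (0.0795 with the filter). With the offset RB1 stood at -0.11 (adjusted p = 0.507). RBL1 (p107), itself a known E2F target, had 9.80, 10.7 and 9.17 CPM in the CON libraries against 7.05, 6.97 and 5.19 CPM in the GCA libraries and fell by 0.63 ± 0.18 (adjusted p = 0.0174). Its call was lost without CON 2 (adjusted p = 0.0763), without GCA 3 (0.0935) and with the offset (-0.31, adjusted p = 0.204). RBL2 (p130), the pocket protein of resting cells, had 12.8, 20.0 and 20.3 CPM in the CON libraries against 17.5, 18.6 and 15.7 CPM in the GCA libraries (log2 -0.03 ± 0.18, adjusted p = 0.896; 0.29 with the offset).

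Among activator E2F genes, E2F2 and E2F3 fell and E2F1 was not called. E2F1 (chromosome 20, 33675477 to 33686385) had 128, 102 and 104 CPM in the CON libraries against 111, 94.8 and 95.4 CPM in the GCA libraries, so the groups overlapped (log2 -0.15 ± 0.13, adjusted p = 0.38). With the offset E2F1 fell by 0.59 (adjusted p = 0.00388). E2F2 (chromosome 1, 23505212 to 23531233) had 59.7, 52.7 and 51.5 CPM in the CON libraries against 38.5, 28.1 and 28.4 CPM in the GCA libraries. It fell by 0.79 ± 0.14 in log2 terms (adjusted p = 0.00126) and by 1.02 with the offset. E2F3 had 31.7, 37.2 and 35.5 CPM in the CON libraries against 26.0, 27.2 and 28.5 CPM in the GCA libraries and fell by 0.35 ± 0.12, which passed narrowly (adjusted p = 0.0366). That call was lost without any single library except CON 1 (adjusted p from 0.0795 to 0.172) and with the offset (-0.05, adjusted p = 0.754). E2F1 made up 77.9%, 74.5% and 75.5% of the activator FPKM in the CON libraries against 81.5%, 82.0% and 81.8% in the GCA libraries.

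The atypical E2F genes E2F7 and E2F8, whose products repress E2F targets without a DP partner, had the lowest fold changes among the E2F genes, although E2F2 was lower than both with the offset. E2F7 (chromosome 12, 77021251 to 77065569) had 15.6, 25.7 and 24.6 CPM in the CON libraries against 10.2, 9.47 and 9.01 CPM in the GCA libraries. It fell by 1.20 ± 0.19 in log2 terms (adjusted p = 5.13e-04), or 2.30-fold, the lowest log2 fold change among the 41 tested. CON 1 was the lowest CON library, and without it the fall was 1.40 (adjusted p = 4.68e-06). E2F8 (chromosome 11, 19224063 to 19241655) had 14.4, 16.9 and 15.3 CPM in the CON libraries against 10.6, 6.67 and 7.65 CPM in the GCA libraries and fell by 0.90 ± 0.19 (adjusted p = 0.00275). With the offset they fell by 0.94 and 0.69. Together they went from 4.21% ± 0.980 (SD) of the FPKM of the 8 E2F genes in CON to 2.35% ± 0.295 in GCA.

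The canonical repressor E2F genes were not called by edgeR (0 of 3 at an unadjusted p under 0.05, 0 with DESeq2 and 0 with limma-voom). E2F4, the most abundant E2F gene per length, had 276, 225 and 240 CPM in the CON libraries against 221, 205 and 228 CPM in the GCA libraries (log2 -0.18 ± 0.12, adjusted p = 0.265) and fell by 0.54 with the offset (adjusted p = 0.00213). E2F5 had 0.08 ± 0.22 and E2F6 -0.26 ± 0.15, with overlapping groups, and E2F6 fell by 0.38 without CON 1 (adjusted p = 0.0227). E2F6 has processed pseudogenes that match it at 99.2% to 99.5%, so its reads could be split. TFDP1, which encodes the DP1 partner of E2F proteins, had 318, 321 and 300 CPM in the CON libraries against 259, 215 and 223 CPM in the GCA libraries and fell by 0.43 ± 0.12 (adjusted p = 0.0163). The processed pseudogene BX842568.2 matches TFDP1 at 95.8% over 1233 bases, so its reads could be split. TFDP1 fell by 0.49 with the offset, and it no longer passed when CON 2 was left out (adjusted p = 0.075), nor without GCA 2 (0.0791) or GCA 3 (0.0871). TFDP2, the DP2 gene, had 0.11 ± 0.14 (adjusted p = 0.586) and rose by 0.42 with the offset (adjusted p = 0.0137).

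**Figure D5:**
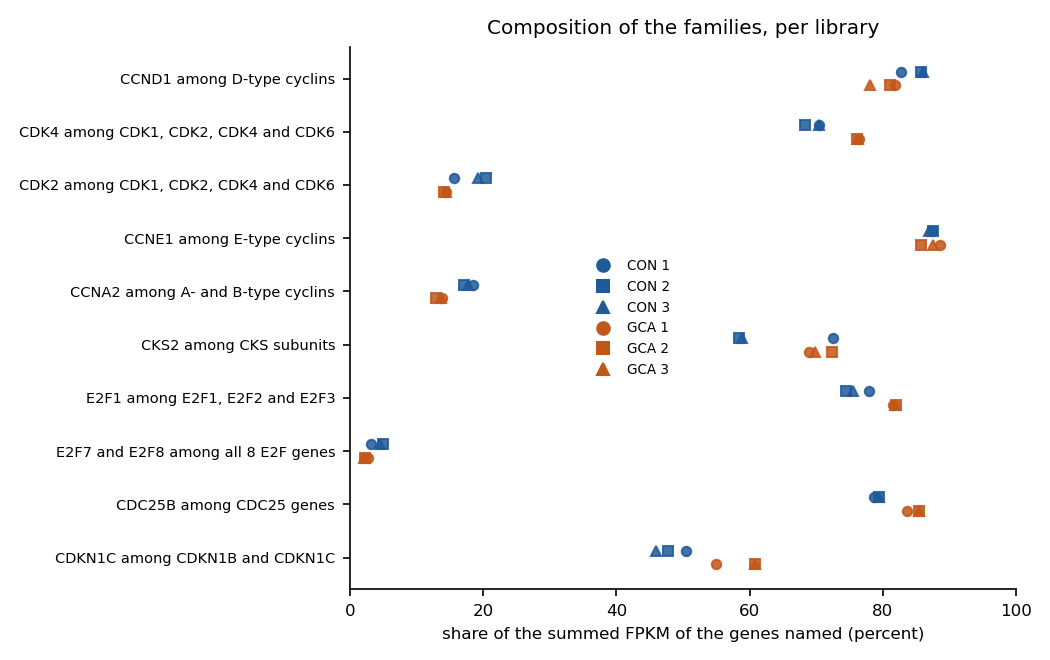
Share of a gene or pair in the summed FPKM of the family named (x axis, percent), for 10 of the 18 shares computed, with a symbol for each replicate number in CON (blue) and GCA (orange). The groups do not overlap for CDK4, CDK2, CCNA2, E2F1, CDC25B, CDKN1C, CCND1 and the atypical E2F genes, and they overlap for CCNE1 and CKS2. The shares carry no correction for GC content.

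Per transcript length, CKS2, CDK4 and CCND1 led the regulators in both groups. CKS2 stood first at 248 ± 53.8 FPKM (SD) in CON and 229 ± 15 FPKM in GCA. CDK4 followed with 219 ± 15.1 and 197 ± 6.79 FPKM and CCND1 with 147 ± 5.71 and 119 ± 5.77 FPKM. In CON, CKS2 and CDK4 did not differ beyond their spread, nor did CCND1 and CKS1B (141 ± 21.4 FPKM), while CDK4 and CCND1 did. CDK6 (1.90 ± 0.295 FPKM in CON), RBL1 (1.62 ± 0.188), CDKN2B (0.718 ± 0.259) and CCND2 stood lowest. The shares above rest on 3 libraries a group, where an exact two-sided permutation test cannot go below p = 0.10, so none was tested. All shares use FPKM without the GC and length offset, and the part of GC content in them was not tested.

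Other genes of the pathway were read from 7 lists, each described by its counts beside the share called over all genes. Of 26 S phase genes known as E2F targets 24 fell (92.3%, where 18.1% of all genes fell) and 0 rose by edgeR (median log2 -0.72), with 0 rises at an unadjusted p under 0.05, with DESeq2 or with limma-voom. Their lowest p-values belonged to the clamp loader gene RFC4, which fell by 1.18 ± 0.13, and the licensing factor gene CDC6, which fell by 1.05 ± 0.13 (adjusted p = 5.99e-05 and 8.99e-05). Without GCA 2 or GCA 3, 17 of the 26 fell (65.4%), where 11.7% and 8.88% of all genes fell. Of 25 genes of G2 and M phase 18 fell (72%, against the same 18.1%) and 0 rose by edgeR (median -0.61), with 0 rises at an unadjusted p under 0.05, with DESeq2 or with limma-voom. Without GCA 2, 14 of the 25 fell (56%), and without GCA 3, 13 fell (52%), where 11.7% and 8.88% of all genes fell. Without CON 1, 18 fell (72%, against 27.3% of all genes) and 3 of the 25 had a log2 fold change above 0. Named by the lowest p-values were the checkpoint kinase BUB1 at -0.73 ± 0.13 and the kinesin KIF23 at -0.72 ± 0.13 (adjusted p = 0.00117 and 0.00151). MKI67, the proliferation marker Ki-67, went from 222 to 142 CPM and fell by 0.64 ± 0.20 (adjusted p = 0.0254). Its call was lost without GCA 2 (adjusted p = 0.113), without GCA 3 (0.133) and with the offset (-0.46, adjusted p = 0.167). With the offset 22 of the S phase genes and 12 of the G2 and M phase genes fell (84.6% and 48%), where 16.7% of all genes fell.

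In the DREAM and MuvB complexes, which bind CHR elements, 3 of 9 genes fell and 0 rose by edgeR (1 higher at an unadjusted p under 0.05, 0 with DESeq2 and 0 with limma-voom). The share called, 33.3%, stood against 36.4% of all genes called in either direction and 18.1% that fell. Without CON 2, GCA 2 or GCA 3 only 1 fell (11.1%), where 10.2%, 11.7% and 8.88% of all genes fell. MYBL1 fell by 1.02 ± 0.24 (adjusted p = 0.00593), from 7.69 to 3.80 CPM, and the histone-binding subunit RBBP4 by 0.38 ± 0.11 (adjusted p = 0.0209). The RBBP4 call was lost with the offset (-0.12, adjusted p = 0.355) and without each library except CON 1 (adjusted p from 0.0544 to 0.121). The mitotic activators MYBL2 (-0.47 ± 0.20, adjusted p = 0.0792) and FOXM1 (-0.17 ± 0.15, adjusted p = 0.398) were not called. MYBL2 passed with the replicate number as a block (adjusted p = 0.00734) and with the offset (-0.84, adjusted p = 0.0098). With the block 5 of the 9 fell (55.6%), where 41% of all genes were called and 21% fell.

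Of 23 ubiquitin ligase genes that turn over cyclins and their inhibitors, 6 fell and 1, the APC/C activator FZR1 (0.46, adjusted p = 0.0108), rose; 30.4% were called, against 36.4% of all genes. FZR1 stood at 0.04 with the offset; it lies outside the rule for named genes and was chosen with its values in view. FBXO5, the APC/C inhibitor EMI1, fell by 0.86 ± 0.12 (adjusted p = 2.78e-04), and DTL, an adaptor that degrades replication factors, by 0.99 ± 0.16 (adjusted p = 5.11e-04). Without CON 1 this list had 8 falls and 5 rises (56.5%, against 52.6% of all genes called). Without CON 3 or GCA 3 it had 4 falls and 0 rises by edgeR (17.4% called). Of all genes 26.7% and 20.6% were called there, and 12% and 8.88% fell. DESeq2 and limma-voom on all libraries each called 1 rise, as did an unadjusted p under 0.05. In the CDK7 complex and the transcription cyclins and CDKs 5 of 17 fell and 1 rose, a share of 35.3% against 36.4% of all genes. The Mediator kinase gene CDK8 fell by 0.77 ± 0.15 and its cyclin CCNC by 0.53 ± 0.13 (adjusted p = 0.002 and 0.00701), and CCNC stood at -0.27 with the offset (adjusted p = 0.186). CCNH, the cyclin of the CDK-activating kinase, had -0.15 ± 0.14 (adjusted p = 0.429). This list had 9 falls without CON 1 and 9 with the replicate block, where 27.3% and 21% of all genes fell. It had 3 falls (17.6%) without CON 2, CON 3 or GCA 3, where 10.2%, 12% and 8.88% of all genes fell. With the offset it also had 3, where 16.7% of all genes fell.

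Other cyclins and CDK-like kinases had 4 rises and 2 falls among 15, a share of 40% near the 36.4% of all genes. There were 0 falls in edgeR when CON 2, CON 3 or any GCA library was left out (8.88% to 13.2% of all genes fell). Without CON 1 there were 5 falls and 5 rises (66.7% called, against 52.6% of all genes). At an unadjusted p under 0.05 there were 3 falls, and DESeq2 and limma-voom each called 1. CCNJL, a cyclin J relative, rose by 0.95 ± 0.17 and CDK18, a PCTAIRE kinase gene, by 0.85 ± 0.12 (adjusted p = 0.00134 and 3.18e-04). CDK18 rose by 0.45 with the offset. Of 18 upstream inputs and controls 8 fell and 3 rose (61.1% called, against 36.4% of all genes). Without CON 2 the count was 4 falls and 1 rise (27.8%, near the 23.8% of all genes). Without GCA 2 or GCA 3 there were 6 falls and 1 rise in each fit (38.9% called, against 25.4% and 20.6% of all genes). Of all genes 11.7% and 8.88% fell there, and 13.7% and 11.8% rose. CHEK1, the replication checkpoint kinase that restrains CDC25A, fell by 0.75 ± 0.14 (adjusted p = 0.00155) and by 0.46 with the offset.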

How the data were processed

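Per the labels, RNA from a cell line named MC38 was sequenced in 3 GCA and 3 CON libraries; the labels name polyA RNA as well as a kit for total RNA. The authors deposited raw counts per gene symbol, and FPKM that equal the count over the library total and 1 length per gene for 16229 of 16229 genes (relative tolerance 1e-09). HTSeq 0.11.2, HISAT2 2.2.1.0, hg38 and fastp 0.20.1 appear in the submitters' processing notes; the annotation, the strand setting and any filter were not given in the sources used here. Table columns were matched to samples by title.

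Counts were tested with edgeR 4.0.16 in R 4.3.3 (TMM, filterByExpr with minimum count 10 and minimum total 15, glmQLFit, glmQLFTest), and scripts were tested on simulated data. The SE is the log2 fold change over the square root of F. A floor of 3 counts is 0.149 to 0.167 CPM, which covers counting error only. GC content is from GENCODE 29 transcripts (99.2% of genes); the offset per library is a spline fit of log2 CPM (prior count 2) on GC content (5 df) and log length (4 df). Gene coordinates are from NCBI's annotation of GRCh38.p14. The deviations from group means of same-numbered libraries correlated at 0.206, 0.137 and 0.104, and those of differently numbered libraries at -0.172 to 0.095. The labels do not say that equal numbers mark a pair. The main fit therefore left the numbers out, and the replicate block was run as an alternative. Libraries of 1 group differed by more than sampling noise (chi-square per gene 4.87 to 45.8). Alternatives were other scalings and filters, DESeq2 1.42.0, limma 3.58.1 (voom, and log2(FPKM + 1) or log2(FPKM + 0.1)), the replicate block, the offset and leaving out libraries. Copies were called at 95% identity over 200 bases. The members and lists were chosen with earlier results of these data known. Named were all members that passed, 14 members fixed by name, and the 2 lowest p-values of each of 7 pathway lists with 5 further genes.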

Additional observations from a re-analysis of the deposited data

How the results depend on the processing

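Of the 23 regulators called, 9 (CCNA2, CCNE1, CDK2, CDK6, CDC25A, E2F2, E2F7, E2F8 and CKS1B) passed in the same direction under all 20 alternatives. CCNE2 and CDKN2D passed under all except those with the GC and length offset. WEE1 passed under all except the offset without the block (adjusted p = 0.0709). The replicate block changed no call among the 42 regulators (20 lower and 3 higher; 5163 genes in all), and among the pathway genes named it changed MYBL2 only; with the block and the offset together 20 fell and 2 rose. Counts were lowest for CCND2, below the filter, and CDKN2B, with 32 to 87 per library.

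Counts of called regulators were 13 without GCA 2 or GCA 3 and up to 26 over the libraries left out in turn (12 to 22 lower, 1 to 4 higher). One regulator rose on unfiltered log2(FPKM + 1), and 5 rose without replicate 1 of both groups. Over all genes, leaving out 1 library gave 2621 to 6707 calls (1493 to 3225 higher, 1128 to 3482 lower). Without replicate 1 of both groups 7419 genes were called, 3710 higher and 3709 lower, and with the offset 1502 were higher. The cause of these shifts was not tested.

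The sign turned in regulators that were not called, and in CCNH. With the offset CCND3 stood at -0.20, CCNG1 at 0.10, CDC25B at -0.27, CDKN1B at 0.08, RBL2 at 0.29, E2F6 at 0.03 and CCNH at 0.16. With the offset and the block they stood at -0.18, 0.10, -0.27, 0.09, 0.30, 0.03 and 0.17. CDC25B was -0.02 with library size alone and in each FPKM fit. Without CON 1, CDK4 was 0.01, CDC25B -0.00, E2F5 -0.11, TFDP2 -0.04 and CKS2 0.18. Without replicate 1 of both groups, CDK4 was 0.00, CDC25B -0.02, TFDP2 -0.01, CKS2 0.25 (adjusted p = 0.00748) and CCNH 0.02. Without CON 2, CDKN1B was 0.01 and RBL2 0.08; without CON 3, RBL2 was 0.09. Without GCA 1, CDC25B was -0.00 and CDKN1B 0.02; without GCA 3, RBL2 was 0.03 and E2F5 -0.13. Over the libraries left out in turn CDK4 ran from -0.17 to 0.01, RBL2 from -0.22 to 0.09 and E2F5 from -0.13 to 0.24.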
